A study of Bos taurus with 38 samples.

Results

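A set of 7 Ensembl genes was followed among the 12,802 genes listed for rumen papillae of 38 purebred Holstein Friesian bulls. They were chosen on measured values, as genes with a strong increase from the end of dietary restriction to the end of re-alimentation within the restricted bulls, and no numerical threshold was set. All 7 were listed in all 38 bulls and passed the low-count filter in each of the 5 comparisons made. The 38 bulls formed 4 groups. ADLIB bulls had free access to feed throughout, and were sampled at day 125 of Period 1 (n = 9) or day 55 of Period 2 (n = 10). RES bulls received a restricted amount of the same concentrate and grass silage diet in Period 1 (n = 9, sampled at day 125), or that restriction and then re-alimentation in Period 2 (n = 10, sampled at day 55). Re-alimentation was a transition with rising feed, followed by free access to feed. The paper reports that diets were assigned within blocks of similar live-weight and age. Papillae were taken at slaughter, so each bull gave 1 sample and the bulls of the 2 periods were different animals.

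Rumen papillae are the finger-like folds of the rumen wall. Their stratified squamous epithelium absorbs the volatile fatty acids made by microbial fermentation, which are the main energy source of the animal, and keeps out rumen microbes and acid. The mass of the rumen wall is known to follow feed intake, and compensatory growth is the faster growth that follows a period of underfeeding. The questions were which of the 7 genes had been low under restriction, and which also had higher expression later in bulls that were never restricted.

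The values are CPM, the reads on a gene relative to all reads of the library after scaling for library composition. Libraries held from 5,948,453 to 11,957,654 reads on the listed genes, and 1 read was worth between 0.0744 and 0.213 CPM. The 7 genes had between 32 and 121,198 reads per bull. Means are given with their SD, over 9 bulls per group in Period 1 and 10 in Period 2, and fold changes are differences of log2(CPM + 1) from a linear model fitted over all genes (limma). The table of gene names used here matched 0 of the 12,802 identifiers, so the genes are called by their identifiers, and their position, exons, sequence and function are not given here. For the same reason the tissue could not be checked against marker genes. The tissue field of the labels names rumen epithelium, while their extraction text speaks of muscle. In bulk tissue, fewer cells of a type and less RNA per cell cannot be told apart.

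Within RES, mean expression of all 7 genes was higher after re-alimentation than after restriction. These values chose the genes, so they are given as a description with no test. The ratio of the group means ran from 1.57 for ENSBTAG00000001027 to 4.17 for ENSBTAG00000006472. The median log2 fold change of the 7 was 1.13, against 0.0063 over all 12,531 genes compared, of which 0.822% were called higher in Period 2 (limma, adjusted p under 0.05). That share rests on 103 genes, which became 67 without RES Period 1 replicate 6, 53 with the replicate block, 54 with the library digit and 218 with DESeq2. Ranked by that fit among the 6,464 genes with a positive change, the 7 genes held ranks 1 to 7. By size of change they held ranks 2 to 73 of all genes. The member with rank 7, ENSBTAG00000001116, had a log2 fold change of 0.79, and the genes just outside the set, with ranks 8 and 9, had 0.89 and 0.93 at lower levels (1.56 and 1.23 CPM on average in RES Period 1).

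ENSBTAG00000006472 had the largest change within RES. Its RES Period 1 values ran from 4.46 to 10.1 CPM with a median of 7.28, and those of RES Period 2 from 10.9 to 55.0 CPM with a median of 29.7. The 2 RES groups did not overlap, and the Period 2 bulls were spread over a 5.03-fold range. The log2 fold change was 1.79 (SE 0.272). In ADLIB, the values ran from 9.44 to 28.3 CPM with a median of 18.5 in Period 1, and from 9.80 to 40.9 CPM with a median of 25.1 in Period 2. The ADLIB groups overlapped over most of their range.

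ENSBTAG00000008779 ran from 21.4 to 38.7 CPM with a median of 26.4 in RES Period 1, and from 41.2 to 117 CPM with a median of 66.7 in RES Period 2. The RES groups were separate, and replicate 10 lay above all other Period 2 bulls, the next of which had 72.3 CPM. The log2 fold change was 1.19 (SE 0.147). ADLIB bulls ran from 27.5 to 99.7 CPM with a median of 41.2 in Period 1, and from 38.5 to 97.4 CPM with a median of 65.8 in Period 2. In Period 1, replicate 3 of ADLIB stood at the top, with the next bull at 58.3 CPM.

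ENSBTAG00000031464 ran from 74.7 to 141 CPM with a median of 85.1 in RES Period 1, and from 121 to 329 CPM with a median of 214 in RES Period 2. These groups overlapped narrowly, as 9 of the 10 Period 2 bulls lay above the highest Period 1 bull. The log2 fold change was 1.13 (SE 0.148). In ADLIB the range was 68.2 to 256 CPM with a median of 156 in Period 1, and 128 to 342 CPM with a median of 214 in Period 2. The RES and ADLIB medians of Period 2 were thus almost the same.

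ENSBTAG00000019517 had from 11.5 to 30.9 CPM with a median of 22.5 in RES Period 1, and from 29.9 to 71.6 CPM with a median of 48.2 in RES Period 2. Again 9 of the 10 Period 2 bulls exceeded every Period 1 bull, and the log2 fold change was 1.14 (SE 0.162). In ADLIB it ran from 9.31 to 67.3 CPM with a median of 36.8 in Period 1, and from 4.90 to 59.2 CPM with a median of 35.4 in Period 2. Here the ADLIB medians of the 2 periods hardly differed. The ADLIB bulls were more spread than the RES bulls in both periods, a difference that the choice of the genes favours.

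ENSBTAG00000004855 took up the most reads of the 7. RES Period 1 bulls had from 2598 to 5272 CPM with a median of 3294, and RES Period 2 bulls from 4010 to 10,130 CPM with a median of 7043. The groups overlapped, with 8 of the 10 Period 2 bulls above the highest Period 1 bull, and the log2 fold change was 1.04 (SE 0.163). ADLIB bulls had from 2703 to 11,755 CPM with a median of 5402 in Period 1, and from 4245 to 13,258 CPM with a median of 6669 in Period 2. The lowest ADLIB bulls of Period 1 were as low as the restricted bulls.

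ENSBTAG00000001027 had the smallest change within RES, but narrow groups, which the choice of the genes favours. It ran from 79.0 to 127 CPM with a median of 102 in RES Period 1, and from 128 to 193 CPM with a median of 162 in RES Period 2. As deposited, the groups did not overlap, by a margin of about 1 CPM. The periods were scaled separately, and scaling both together moved samples by factors of 0.985 to 1.01. Whether the groups stay apart on a joint scale was not tested. The log2 fold change was 0.65 (SE 0.0994). In ADLIB it ran from 92.5 to 195 CPM with a median of 120 in Period 1, and from 71.7 to 257 CPM with a median of 177 in Period 2. Of the ADLIB Period 2 bulls, 5 of 10 lay above the highest ADLIB Period 1 bull, while 1 lay below the lowest.

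ENSBTAG00000001116 was among the genes with few reads. It had from 6.97 to 16.4 CPM with a median of 12.7 in RES Period 1, and from 17.3 to 25.4 CPM with a median of 21.7 in RES Period 2, and the groups did not overlap. In ADLIB the range was 10.3 to 26.6 CPM with a median of 16.7 in Period 1, and 7.82 to 28.7 CPM with a median of 22.8 in Period 2. Its RES bulls of Period 2 were the most uniform group of any of the 7 genes, with a coefficient of variation of 13.3%, but the choice of the genes favours narrow RES groups. Over the 7 genes, RES Period 1 and RES Period 2 did not overlap in 4, against 0.0638% of all genes compared, a count that the choice of the genes favours. Of these 4, ENSBTAG00000001027 was separated only by the narrow margin given above.

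**Figure D1:**
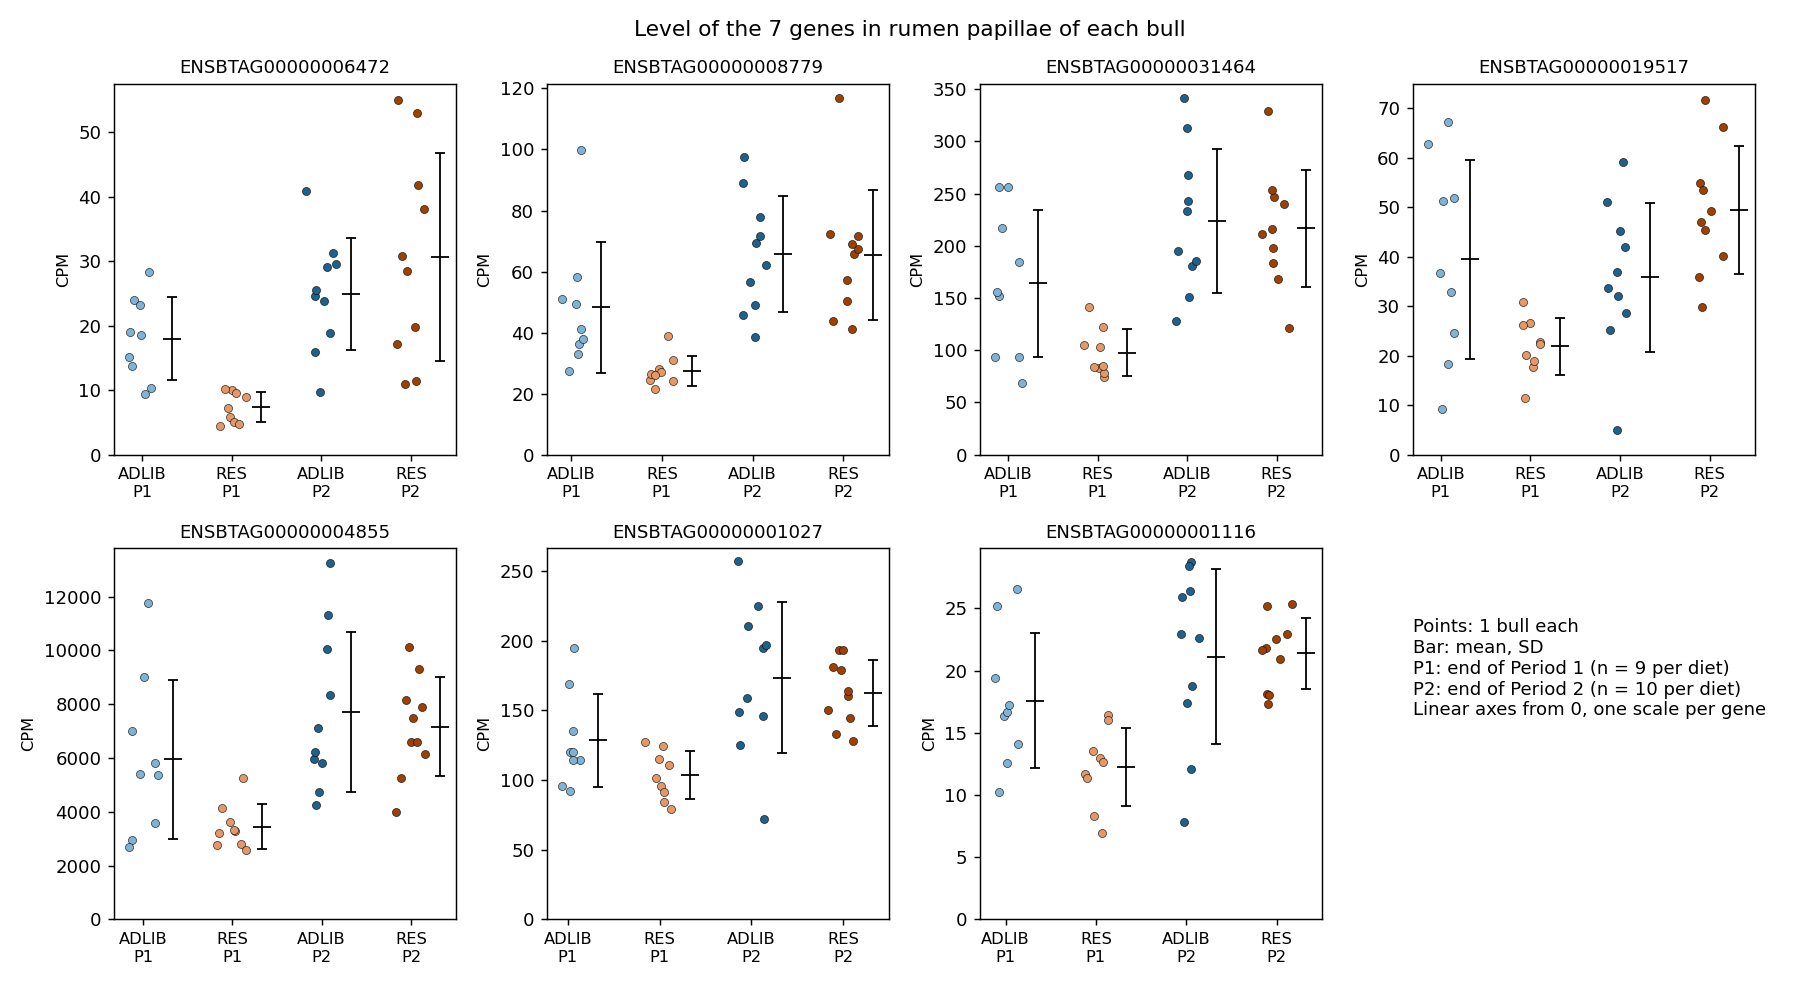
Level of each gene in CPM (linear axes from 0, 1 panel per gene) for each bull, with points for single bulls and bars for the group mean and SD. RES Period 1 has the lowest mean in every panel, and in ENSBTAG00000019517 alone the ADLIB mean is no higher in Period 2 (35.9 CPM) than in Period 1 (39.5 CPM).

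At the end of Period 1, mean expression of all 7 genes was lower in RES than in ADLIB. This comparison shares the RES Period 1 bulls with the choice of the genes, which favours low values in those bulls. Its direction, p-values, ranks and calls for the 7 genes are thus not independent evidence. None of the 7 genes passed an adjusted p of 0.05 with limma, and neither did any other gene with lower expression in RES (0.0% of 12,627 genes called lower, also with edgeR's quasi-likelihood test). Adjusted p-values of the 7 ran from 0.0686 to 0.492. With an unadjusted p under 0.05, all 7 were lower, against 4.61% of all genes. The median log2 fold change of the 7 was -0.66, against -0.00093 over all genes.

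ENSBTAG00000006472 stood apart most clearly at this point. It averaged 7.36 ± 2.36 CPM in RES against 18.0 ± 6.41 CPM in ADLIB, a level 2.44 times that of RES. All 9 RES bulls lay below the ADLIB median, and 8 of 9 ADLIB bulls lay above the highest RES bull. The log2 fold change was -1.16 (SE 0.203, adjusted p = 0.0686 from limma), the second smallest p of all genes tested, a rank that the choice of the genes favours. The call depended on the tool and on single bulls. On the reads recovered from the CPM, edgeR's exact test called it lower in RES (log2 fold change -1.29, adjusted p = 3.05e-05), as did DESeq2 (-1.29, adjusted p = 4.34e-05), while adjusted p-values over all alternatives with every bull included reached 0.200. With limma it was called when ADLIB Period 1 replicate 3 (adjusted p = 0.0313), ADLIB Period 1 replicate 4 (0.0156) or RES Period 1 replicate 8 (0.0331) was left out.

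ENSBTAG00000008779 was the other gene called by those count tools. It averaged 27.5 ± 5.01 CPM in RES against 48.3 ± 21.5 CPM in ADLIB. Its log2 fold change with limma was -0.71 (SE 0.177, adjusted p = 0.155), with the exact test -0.81 (adjusted p = 0.0074) and with DESeq2 -0.82 (adjusted p = 0.0109), and the largest adjusted p of its alternatives with every bull included was 0.200. The exact test called 0.111% and DESeq2 0.174% of all genes lower in RES. In ADLIB, 5 of 9 bulls lay above the highest RES bull and the others lay inside the RES range.

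The other 5 genes overlapped more between the diets. ENSBTAG00000031464 averaged 97.5 ± 22.5 CPM in RES against 164 ± 70.4 CPM in ADLIB, a log2 fold change of -0.64 (SE 0.224). ENSBTAG00000004855 averaged 3448 ± 831 CPM in RES against 5953 ± 2961 CPM in ADLIB, a log2 fold change of -0.67 (SE 0.243). For both of these genes, 6 of 9 ADLIB bulls lay above the highest RES bull, while the lowest ADLIB bulls were at RES levels. ENSBTAG00000019517 averaged 21.9 ± 5.72 CPM in RES against 39.5 ± 20.1 CPM in ADLIB, with a log2 fold change of -0.66 (SE 0.291). ENSBTAG00000001116 averaged 12.2 ± 3.14 CPM in RES against 17.6 ± 5.43 CPM in ADLIB, with -0.48 (SE 0.173). The difference was smallest for ENSBTAG00000001027, at 103 ± 17.2 CPM in RES against 128 ± 33.4 CPM in ADLIB (log2 fold change -0.29, SE 0.130), and 2 of its 9 RES bulls lay above the ADLIB median.

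**Figure D2:**
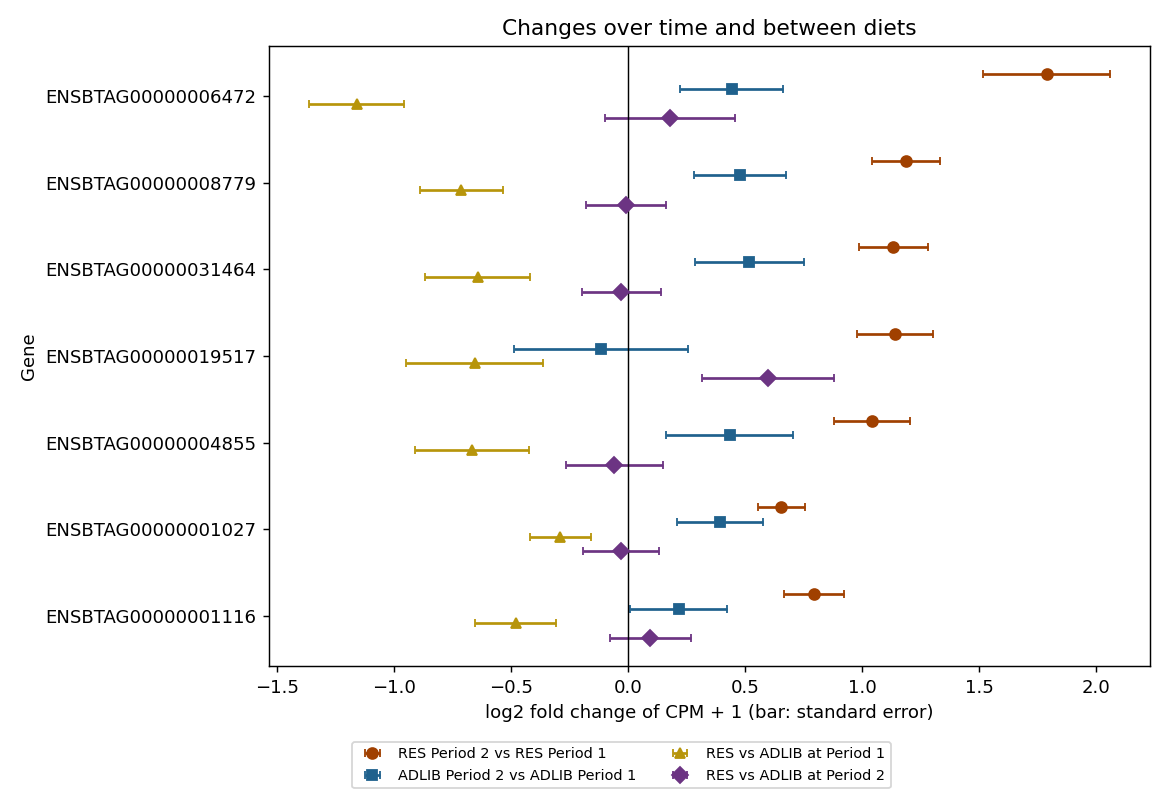
Log2 fold changes of CPM + 1 (x axis) for each gene (y axis) with the standard error as bars, for the change over time in RES and in ADLIB and for the difference between the diets in each period. The difference at Period 1 lies between -1.16 and -0.29, and at Period 2 it lies between -0.06 and 0.18 in all genes but ENSBTAG00000019517 (0.60).

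Between the end of Period 1 and the end of Period 2, mean expression within ADLIB was higher in 6 of the 7 genes and lower in ENSBTAG00000019517. ADLIB bulls took no part in the choice of the genes, so of the comparisons over time this one used none of the bulls that chose them. The bulls of Period 2 were also older and slaughtered later, in both diets. A shift between the periods shared by both diets would favour the choice of a gene and raise it here too, and cannot be told apart. None of the 7 genes was called, and none of the 12,513 genes tested was (0.0% called higher). Adjusted p-values of the 7 ran from 0.869 to 0.992 (limma). With an unadjusted p under 0.05, 3 of the 7 genes were higher in Period 2, against 3.09% of all genes tested. EdgeR's exact test called 0.016% of all genes higher and none of the 7, the quasi-likelihood test 0.0% and none of the 7. DESeq2 by its own filter gave no adjusted p for 7763 of the 12,513 genes, among them ENSBTAG00000006472 and ENSBTAG00000001116. It called 1 gene higher, which is 0.00799% of all 12,513 genes, the filtered ones included. None of the 5 members with an adjusted p was called. The median log2 fold change of the 7 was 0.43, against -0.0027 over all genes, and 95% of all genes had a change below 0.23. All genes are an unlike yardstick, as the 7 varied more between bulls than most. Their log2 SD exceeded that of 76.3% to 98.8% of genes in ADLIB Period 1, and of 85.2% to 99.1% in ADLIB Period 2. ENSBTAG00000031464 and ENSBTAG00000004855 moved almost together (r = 0.97 in ADLIB), so they do not count as 2 separate results.

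The sizes were alike in 5 genes. ENSBTAG00000031464 had 224 ± 69.0 CPM in ADLIB Period 2 against 164 ± 70.4 CPM in Period 1, a log2 fold change of 0.52 with a 95% interval of 0.034 to 1.00. ENSBTAG00000008779 had 65.8 ± 19.0 CPM against 48.3 ± 21.5 CPM, a log2 fold change of 0.48 with an interval of 0.073 to 0.89. ENSBTAG00000001027 had 174 ± 54.0 CPM against 128 ± 33.4 CPM, a log2 fold change of 0.39 with an interval of 0.0086 to 0.78. These are the 3 genes with an unadjusted p under 0.05, and none held after adjustment over all genes.

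For ENSBTAG00000006472 the ADLIB change was 0.44 (interval -0.012 to 0.90) and for ENSBTAG00000004855 it was 0.43 (interval -0.13 to 1.00). Both intervals include no change. ENSBTAG00000001116 had 21.1 ± 7.03 CPM against 17.6 ± 5.43 CPM, a log2 fold change of 0.22 (interval -0.22 to 0.65). ENSBTAG00000019517 had 35.9 ± 15.1 CPM against 39.5 ± 20.1 CPM, a log2 fold change of -0.12 (interval -0.89 to 0.66). That sign rested on single bulls, since the change was 0.16 without ADLIB Period 2 replicate 9 and 0.0041 without ADLIB Period 1 replicate 6.

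The same bull, ADLIB Period 2 replicate 9, was the lowest of its group in 4 of the 7 genes, ENSBTAG00000006472, ENSBTAG00000019517, ENSBTAG00000001027 and ENSBTAG00000001116. Its library was not shallow, with 10,641,638 reads. Without it the ADLIB change was 0.57 in ENSBTAG00000006472, 0.52 in ENSBTAG00000001027 and 0.35 in ENSBTAG00000001116, and none was called (adjusted p from 0.304 to 0.937 over the 7 genes with limma). ENSBTAG00000001116 thus moved by over 1.5 times from 0.22, and it moved as far down, to 0.13, without ADLIB Period 1 replicate 3.

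**Figure D3:**
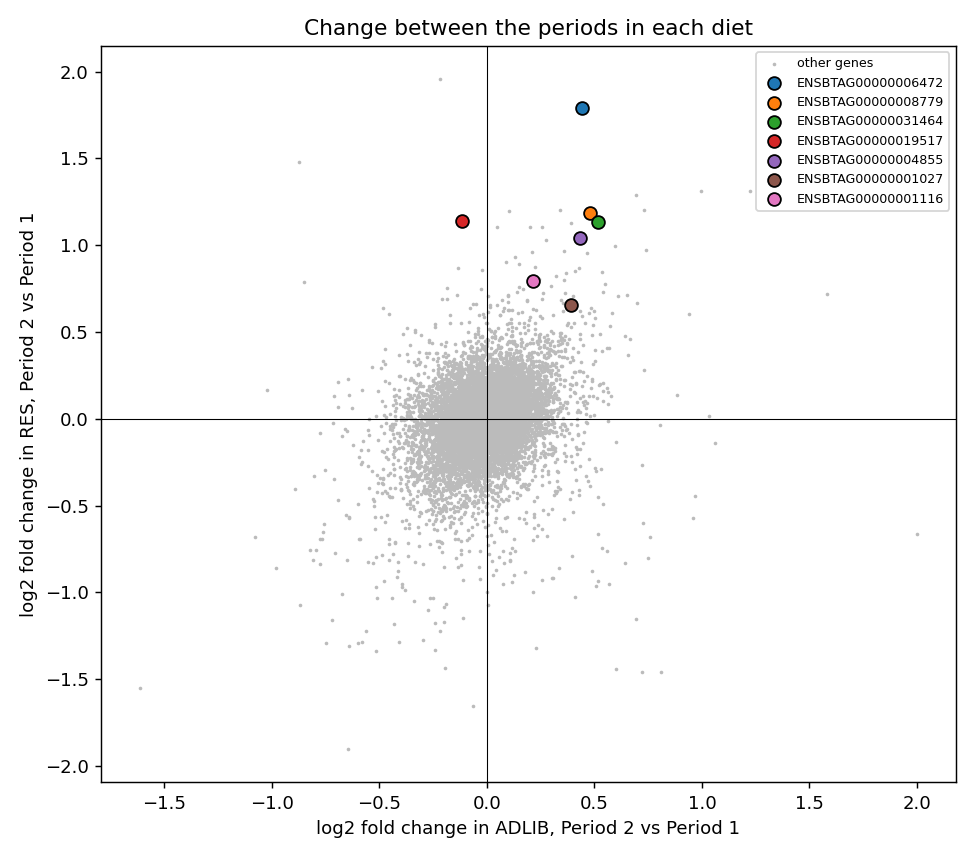
Log2 fold change from Period 1 to Period 2 in ADLIB (x axis) and in RES (y axis) for 12,501 genes, 1 point per gene, with the 7 genes in colour. All 7 lie above 0.65 on the RES axis because they were chosen there, while on the ADLIB axis 6 lie between 0.22 and 0.52 and ENSBTAG00000019517 at -0.12.

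The fitted change over time was more positive in RES than in ADLIB for all 7 genes. The difference between the changes, RES minus ADLIB, had a median of 0.61 on the log2 scale over the 7 genes and of 0.0027 over all 12,543 genes. It shares all RES bulls with the choice of the genes, which favours a large change in RES. It was largest in ENSBTAG00000006472, at 1.34 (SE 0.368, adjusted p = 0.576 from limma), and in ENSBTAG00000019517, at 1.25 (SE 0.430, adjusted p = 0.904). In ENSBTAG00000001027 it was 0.26 (SE 0.221), the smallest of the 7, with a 95% interval from -0.19 to 0.70, and 0.13 without ADLIB Period 2 replicate 9. None of the 7 was called, against 0.00797% of all genes called with a more positive change in RES (limma, and likewise edgeR's quasi-likelihood test and DESeq2). With DESeq2, ENSBTAG00000006472 fell just short (adjusted p = 0.0535, the lowest of its alternatives with every bull included, which reached 0.686). With an unadjusted p under 0.05, 5 of the 7 had a more positive change in RES, against 2.29% of all genes. So a larger increase in RES than in ADLIB did not hold after adjustment for any single one of the 7.

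At the end of Period 2, when all bulls had free access to feed, RES and ADLIB means were close together in all genes but ENSBTAG00000006472 and ENSBTAG00000019517. The comparison shares the RES Period 2 bulls with the choice of the genes, which favours high values in those bulls. Its direction, sizes, p-values and calls for the 7 genes are thus not independent evidence. None of the 7 was called with limma, edgeR's exact and quasi-likelihood tests or DESeq2, and neither was any of the 12,581 genes tested (0.0% called higher). The smallest adjusted p of the 7 was 0.919. ENSBTAG00000008779 averaged 65.6 ± 21.3 CPM in RES against 65.8 ± 19.0 CPM in ADLIB, with a 95% interval of the log2 fold change of -0.36 to 0.35. ENSBTAG00000031464 averaged 217 ± 56.0 CPM in RES against 224 ± 69.0 CPM in ADLIB, with an interval of -0.38 to 0.32. For ENSBTAG00000004855 the means were 7161 ± 1835 CPM and 7701 ± 2978 CPM, with an interval of -0.49 to 0.37. These intervals allow a difference of either sign that is smaller than the fitted difference at Period 1.

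ENSBTAG00000001027 averaged 163 ± 23.6 CPM in RES against 174 ± 54.0 CPM in ADLIB at this time, with an interval of -0.37 to 0.30. ENSBTAG00000001116 averaged 21.4 ± 2.85 CPM in RES against 21.1 ± 7.03 CPM in ADLIB, with an interval of -0.26 to 0.45. In both genes the means were close and the RES bulls lay inside the ADLIB range. ENSBTAG00000006472 averaged 30.7 ± 16.1 CPM in RES against 25.0 ± 8.70 CPM in ADLIB, a log2 fold change of 0.18 with an interval of -0.39 to 0.75, and 3 RES bulls lay above the highest ADLIB bull. Its size depended on single bulls of both groups, from 0.056 without ADLIB Period 2 replicate 9 and 0.067 without RES Period 2 replicate 4 to 0.31 without RES Period 2 replicate 9, with RES Period 2 replicates 2 (0.073), 5 (0.31) and 10 (0.11) also moving it by over 1.5 times.

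ENSBTAG00000019517 had the largest fold change of the 7 between the diets at this time. It averaged 49.4 ± 12.9 CPM in RES against 35.9 ± 15.1 CPM in ADLIB, a log2 fold change of 0.60 (SE 0.283, adjusted p = 0.919 from limma). Of the RES bulls, 9 of 10 lay above the ADLIB median and 2 above the highest ADLIB bull. Without ADLIB Period 2 replicate 9 the log2 fold change was 0.33. It was the 1 gene of the 7 with an unadjusted p under 0.05 here (limma), against 2.36% of all genes with a higher level in RES. The choice of the genes favours a higher level in these RES bulls, so this is a description.

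Ordered by mean level, RES Period 1 was lowest for every gene. The next group up was ADLIB Period 1 in 6 genes and ADLIB Period 2 in ENSBTAG00000019517. The step from RES Period 1 to the next group was larger than the larger SD of the 2 groups in ENSBTAG00000006472 alone (10.6 CPM against an SD of 6.41 CPM). RES Period 2 was the highest group in ENSBTAG00000006472, ENSBTAG00000019517 and ENSBTAG00000001116, and ADLIB Period 2 was the highest in the other 4 genes. In all 7 genes the step between the 2 highest groups was within the larger SD. Of the steps in between, ADLIB Period 1 to RES Period 2 in ENSBTAG00000001027 was the only one larger than the SD (34.1 CPM against 33.4 CPM).

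The spread between bulls was larger than counting error in every gene and group. For ENSBTAG00000004855 the coefficient of variation in a group was from 24.1% to 49.7%, while counting error alone gives from 0.396% to 0.592%. For ENSBTAG00000006472 in RES Period 1, the group with the fewest reads, it was 32.1% against 12.7% from counting, and the values came closest for ENSBTAG00000001116 in RES Period 2, at 13.3% against 7.32%. In ADLIB Period 1 the SD on the log2 scale ran from 0.35 to 0.90 over the 7 genes, against a median of 0.24 over all genes. In RES Period 1 the SDs ran from 0.23 to 0.42 against a median of 0.23 over all genes, but the choice of the genes favours narrow RES groups, so nothing is read from the lower spread there. The largest SD of any gene and group was 0.94, for ENSBTAG00000019517 in ADLIB Period 2, and the largest in RES was 0.82, for ENSBTAG00000006472 in Period 2.

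Among bulls of 1 group, the 7 genes did not move as 1 block. This was described in the 19 ADLIB bulls, which were not used to choose the genes, as the correlation of deviations from the group mean on the log2 scale. Over 21 pairs of genes, Pearson's r ran from -0.34 to 0.97 with a median of 0.22, and 14 pairs were positive. In RES bulls, 7 of the 21 pairs were positive, with a median of -0.035. The pairs share their libraries, scaling and bulls, and no p is given for them.

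A single pair was almost fixed to each other. Deviations of ENSBTAG00000031464 and ENSBTAG00000004855 had r = 0.97 and Spearman's rho = 0.97 over the 19 ADLIB bulls, and r = 0.97 without the 2 bulls farthest from the median of ENSBTAG00000031464. Within ADLIB Period 1 r was 0.97 and within ADLIB Period 2 it was 0.99, and over the 19 RES bulls it was 0.89. Over all 38 bulls r was 0.97, and each of the pair was the gene most like the other among all genes. The value of ENSBTAG00000004855 divided by that of ENSBTAG00000031464 was 34.6 ± 4.04 (SD, n = 38), and stayed between 29.4 and 45.9 while the genes themselves varied several-fold. The group means of this ratio were 36.0, 35.6, 33.8 and 33.1 in ADLIB Period 1, RES Period 1, ADLIB Period 2 and RES Period 2. Gene length is not taken into account in CPM, so the ratio itself is not a ratio of transcript numbers. Whether the genes share sequence, so that reads could fall on either, was not tested.

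**Figure D4:**
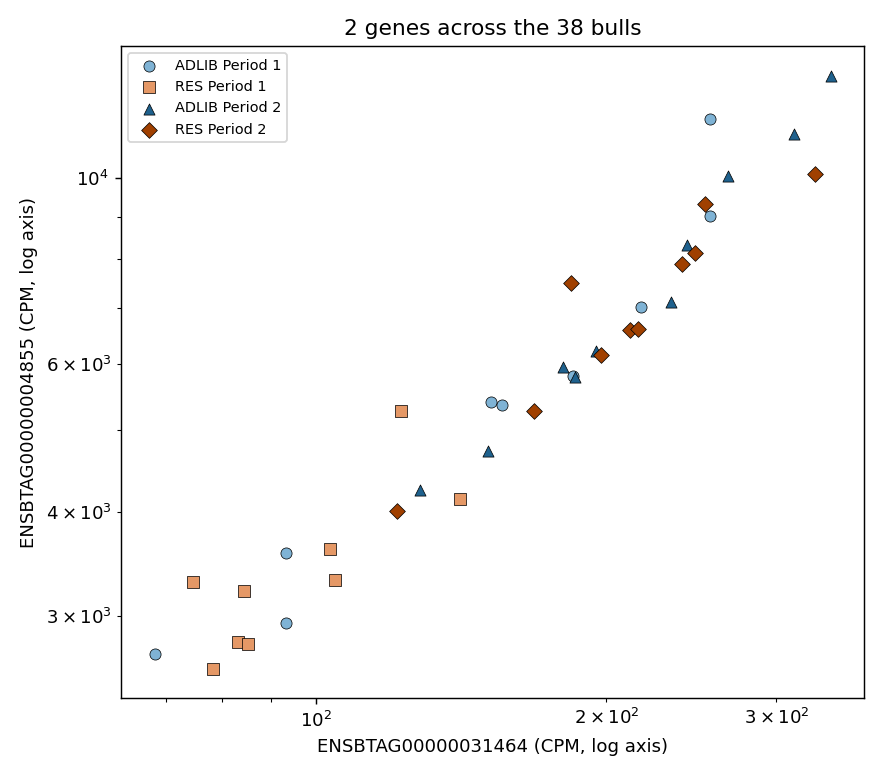
CPM of ENSBTAG00000031464 (x axis) against CPM of ENSBTAG00000004855 (y axis), both on log axes, with 1 point per bull and a colour and marker per group. The 38 bulls of the 4 groups lie along 1 band, with a ratio between 29.4 and 45.9.

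Looser relations joined ENSBTAG00000001027, ENSBTAG00000001116 and ENSBTAG00000019517. ENSBTAG00000001027 and ENSBTAG00000001116 had r = 0.77 (Spearman's rho = 0.68) over the 19 ADLIB bulls and 0.43 over the 19 RES bulls. ENSBTAG00000019517 had r = 0.64 with ENSBTAG00000001116 and 0.60 with ENSBTAG00000001027, and 0.12 and 0.27 without the 2 bulls farthest from its median. In the 19 RES bulls these 2 values were 0.087 and 0.16. These rested in part on ADLIB Period 2 replicate 9. Leaving that bull out reduced the pairs with r over 0.5 from 5 to 2, with r = 0.60 for ENSBTAG00000001027 and ENSBTAG00000001116 and r = 0.97 for the near-fixed pair. ENSBTAG00000006472 had negative r with ENSBTAG00000031464 and ENSBTAG00000004855, -0.33 and -0.34 in ADLIB but -0.021 and -0.18 in RES. In ADLIB, 13.8% and 12.9% of all genes had a lower r to it than these 2. ENSBTAG00000019517 had r = -0.46 and -0.575 with the same pair in RES, but -2.38e-05 and -0.073 in ADLIB. ENSBTAG00000008779 was only loosely related to any other member in ADLIB (r from -0.31 to 0.41).

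**Figure D5:**
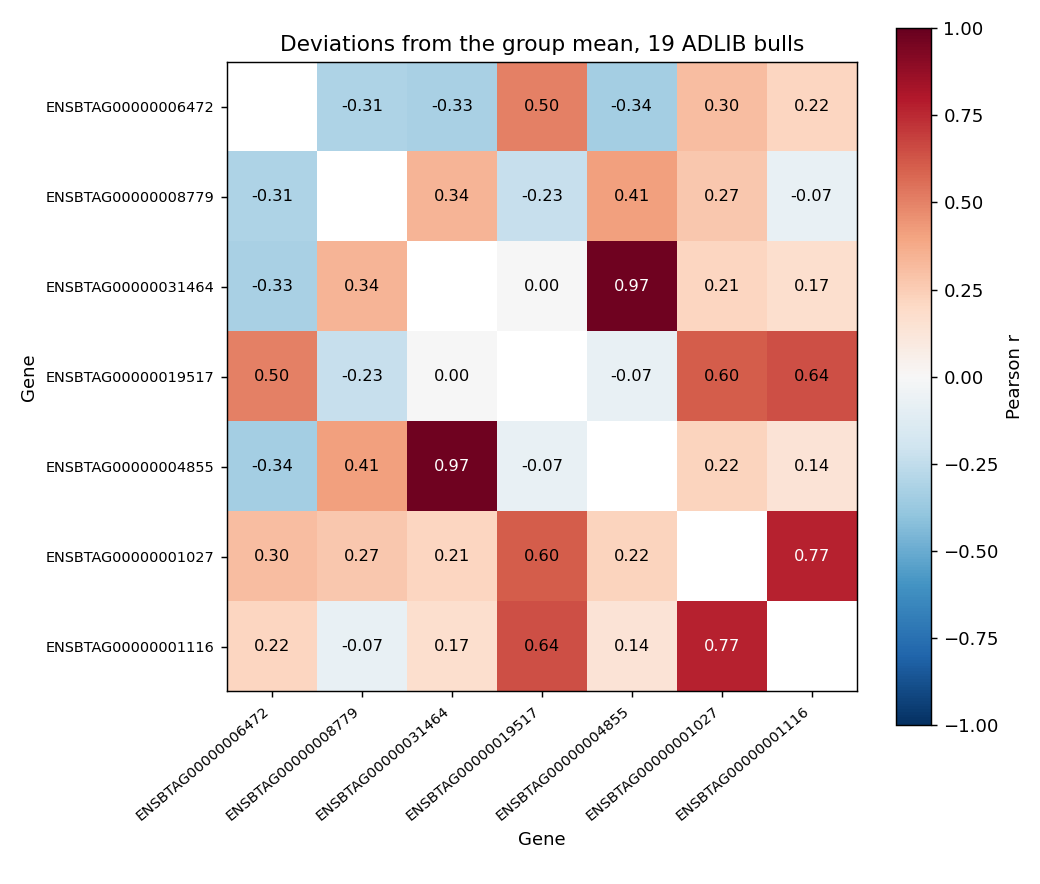
Pearson's r (colour and number) between deviations from the group mean on the log2 scale for each pair of the 7 genes, on both axes, over 19 ADLIB bulls. ENSBTAG00000031464 with ENSBTAG00000004855 (0.97) and ENSBTAG00000001027 with ENSBTAG00000001116 (0.77) are the highest values, and the lowest is -0.34.

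Libraries carried an identifier whose first digit was 1, 2, 3 or 4. The labels do not say what it stands for, but the 10 libraries with digit 1 were shallow (5,948,453 to 7,349,256 reads). Digit 1 was more frequent in RES Period 1 (4 of 9) than in ADLIB Period 1 (1 of 9). The increase within RES was present in the group means of all 4 digits for all 7 genes. These are the values that chose the genes, so this is a description and not independent evidence. At Period 1, RES means were below ADLIB means in all 4 digits for 5 genes and in 3 of 4 digits for ENSBTAG00000019517 and ENSBTAG00000001116, where digit 4 was the exception. For ENSBTAG00000001027 the means in digit 4 were almost equal (114.3 CPM in RES, 114.5 CPM in ADLIB). The choice of the genes favours low values in the RES Period 1 bulls here too. Over time in ADLIB, the Period 2 mean was higher in all 4 digits for ENSBTAG00000008779, ENSBTAG00000031464, ENSBTAG00000001027 and ENSBTAG00000001116, in 3 for ENSBTAG00000006472 and ENSBTAG00000004855, and in 2 for ENSBTAG00000019517. A digit held between 1 and 4 bulls of a group, so these are values without a test.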

How the data were processed

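The authors trimmed single-end reads, aligned them to the UMD3.1 genome with Tophat and Bowtie2, counted them per Ensembl gene with HTSeq, removed genes with low counts and deposited 1 signal value per gene and bull. These deposited values are counts relative to the TMM-scaled library size, as CPM from edgeR. Every value (100%, tolerance 0.001 reads) was a whole multiple of the value of 1 read, so reads were recovered, and TMM factors from them gave the deposited scale of each period. Scaling both periods together moved samples by factors of 0.985 to 1.01. Group values in the text are as deposited.

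The main test was limma 3.58.1 with a variance trend on log2(CPM + 1), after edgeR 4.0.16 TMM scaling and filterByExpr, in R 4.3.3, on the groups compared, with Benjamini-Hochberg adjustment over all genes, two-sided. A pseudocount of 1 understates changes of low genes. Fitted on recovered reads were edgeR's quasi-likelihood and exact tests and DESeq2 1.42.0. Other alternatives were RLE scaling, the deposited scale, other filters, a pseudocount of 0.1, all 4 groups, the library digit, the replicate block and leaving out each bull. Scripts were tested on simulated data. Correlations and plots used Python 3.11.15. The members, lists and tests were chosen with earlier results of these data known. The named genes were to be the 7 members, and their nearest genes are given by number only, as no identifier was paired with a name. The planned gene lists and cell type markers were void for that reason. P-values cover the spread between bulls.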

Additional observations from a re-analysis of the deposited data

Results flagged for a closer look

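ENSBTAG00000019517 in ADLIB Period 2 replicate 9 had 4.90 CPM, far below the next lowest bull of its group with 25.2 CPM. On the log2(CPM + 1) scale the distance to that bull made up 0.641 of the spread from lowest to highest, above Dixon's 95% limit of 0.466 for 10 bulls, while on the linear CPM scale it made up 0.373. Its 47 reads give a 95% exact Poisson interval of 3.60 to 6.52 CPM, which covers counting error only and lies below the next bull. On the log2(CPM + 1) scale it was the 1 value that stood apart among 28 combinations of gene and group, and by chance about 1 in 20 groups would hold such a value. On the linear CPM scale other bulls lay far from their group. For ENSBTAG00000008779 the highest bull had 117 CPM and the next 72.3 CPM in RES Period 2, and 99.7 and 58.3 CPM in ADLIB Period 1.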

How the results depend on the processing

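The number of members called was 0 for ADLIB over time, RES against ADLIB at Period 2 and the difference between the changes under every alternative run, each bull left out included (for ADLIB over time, DESeq2 gave no adjusted p for 2 members). For RES against ADLIB at Period 1 it was 0 with limma, 2 with edgeR's exact test and 2 with DESeq2, and from 0 to 1 when a bull was left out. The cause was not tested. With the library digit as a covariate, the sign turned for ENSBTAG00000019517 over time in ADLIB (0.11), and at Period 2 for ENSBTAG00000008779 (0.062) and ENSBTAG00000001116 (-0.0092). Leaving out 1 bull turned signs of values near 0: ENSBTAG00000019517 over time in ADLIB ran from -0.34 to 0.16, and the difference at Period 2 from -0.11 to 0.059 in ENSBTAG00000008779, -0.10 to 0.058 in ENSBTAG00000031464, -0.14 to 0.039 in ENSBTAG00000004855, -0.16 to 0.040 in ENSBTAG00000001027 and -0.036 to 0.15 in ENSBTAG00000001116. No other log2 fold change turned its sign. The replicate block left the number of members called at 0 for ADLIB over time, both diet comparisons and the difference between the changes, and the number of all genes called for RES over time moved from 204 to 119. Calls of the 7 within RES under any alternative follow from their choice and are not read as stability. Same-numbered bulls did not deviate together in every pair (r over 0.1 in 5 of 9 pairs of the diets at Period 1, and in 2 or 3 pairs elsewhere), nor did every bull correlate best with its own number. Between the diets at Period 1, same-numbered pairs had a mean r of 0.122 and a highest r of 0.707, against a mean of -0.014 for other pairs. There 3 of 9 RES bulls correlated best with their own number. What the numbers stand for is not given in the labels, and they were not taken to pair the bulls. Genes with few reads limit precision: ENSBTAG00000006472 had as few as 32 reads.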

Other observations

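The other genes most like each of the 7 were counted over all 38 bulls on the log2 scale, as a description in which the points share libraries, scaling and the differences between the groups, among them the increase in RES that chose the genes. ENSBTAG00000019517 had 20 genes outside the set with r of at least 0.8, the closest at 0.89, and ENSBTAG00000001027 had 7, the closest at 0.87. ENSBTAG00000001116 had 1, at 0.815, and the other 4 members had 0. For those 4 the closest gene outside the set had r between 0.67 and 0.79. Without ADLIB Period 2 replicate 9, a choice made after seeing the data, the 20 genes near ENSBTAG00000019517 became 5, the 7 near ENSBTAG00000001027 became 6, and the 1 near ENSBTAG00000001116 fell below that r. As deviations from the group mean in the 19 ADLIB bulls, which leave those differences out, the closest gene outside the set had r = 0.93 for ENSBTAG00000019517, 0.88 for ENSBTAG00000001027 and 0.84 for ENSBTAG00000001116.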
